A study of Homo sapiens with 30 samples.

Results

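SUP-T1 is a human line derived from a T-cell lymphoblastic lymphoma, and its transcriptional response to CHOEP is described here. The data come from the 3 arrays of CHOEP-treated cells (24 h, at the line's own IC50) and the 3 arrays of untreated cells, 6 of the 30 arrays of a study that also profiled HD-MAR-2, KARPAS-299, JURKAT and HH cells in the same way. A gene entered the description when its probe was detected (detection p below 0.01) by 3 or more of the 6 SUP-T1 arrays, which held for 10098 genes of the 12482 tested over all lines (17530 of 22652 probes). The 3 replicates per condition are biological replicates according to the submitters. P-values rest on the spread among parallel cultures of established lines. For each probe it was estimated jointly over all 5 lines, and not from the SUP-T1 cultures alone. Each line was treated at its own IC50, which the paper lists as the same for SUP-T1 and KARPAS-299. Levels are log2 signals of Illumina HumanHT-12 v4 BeadChips after background correction and quantile normalisation. A log2 fold change is the mean of the CHOEP-treated minus that of the untreated arrays, and its error is the standard error from limma.

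CHOEP brings together etoposide and doxorubicin, poisons of topoisomerase II, the microtubule poison vincristine, the alkylator cyclophosphamide, which needs activation in the liver, and prednisone, a ligand of the glucocorticoid receptor. In immature T cells the glucocorticoid receptor switches on genes such as TSC22D3 and lets the BH3-only proteins BIM and BMF oppose the survival proteins of the BCL2 family. FOXO factors, released when PI3K and AKT signalling weakens, activate brakes on growth, while E2F factors and the complexes that bind cell cycle homology regions time the transcription of S phase and mitotic genes.

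Between 16502 and 17862 probes were detected on the SUP-T1 arrays. Correlations were 0.986 to 0.993 between arrays of the same group and 0.977 to 0.985 between the groups, and 6 of 6 arrays were closest to an array of their own group. All 17 T-lineage markers examined were detected, among them CD3D, CD8A, CD1A, CD1B, PTCRA, RAG1 and LEF1. Of 25 markers of other blood, epithelial and stromal cells, 9 were detected and 14 were detected on none of the 6 arrays. The 9 were the B-cell genes CD79A and CD79B, the monocyte genes CD14, CD68 and FCGR3A, the natural killer cell genes KLRD1, NKG7 and PRF1, and the platelet gene PPBP. Among the 14 were MS4A1, CD22, LYZ, CSF1R, NCAM1, GNLY, HBB and EPCAM. The summed linear signal of these 25 markers was 3649 to 3774 with CHOEP and 2745 to 3220 without, against 115738 to 120497 and 117093 to 123985 for the T-lineage markers. The 6 arrays shared a chip on which treated and untreated samples had fixed positions, so position cannot be told apart from treatment. Loss of some cells and less RNA per cell cannot be told apart in these bulk samples either.

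CHOEP changed the level of many SUP-T1 genes by a little and of a small set by a lot. A call required a change of 2-fold or more together with an adjusted p below 0.05. By this measure 198 genes were called up (1.96% of those tested) and 95 were called down (0.941%). Without the fold threshold 1476 genes were higher (14.6%) and 1637 lower (16.2%). An unadjusted p under 0.05 was reached by 4270 of the 10098 genes, and counts of that kind for the groups below are to be read beside this share. The median log2 fold change over all detected genes was -0.01. The upper end reached further, with 24 genes past 4-fold up and 1 past 4-fold down. All 3 treated arrays lay above all untreated arrays for 192 of the 198 genes called up, and below them for 95 of the 95 called down, where such a separation was seen upward in 1785 (17.7%) and downward in 1883 (18.6%) of all genes. The split of the calls depended on the scaling: with arrays scaled to a common median, which moved the median of all genes to -0.25, 131 genes were called up and 341 down, so that 27.8% of calls were upward in place of 67.6%. Under that scaling the medians of 8 of the gene groups described below went from above 0 (0.02 to 0.27) to below it (caspases, p53 targets, T-cell receptor signalling, interferon, class I presentation, immediate early, anthracycline and oxidative phosphorylation genes). All 8 stayed above the median of all genes, by 0.03 to 0.24. Detection differed too: 90 genes were detected only in treated and 29 only in untreated cells, of which 36 were called up and 13 down. For these a fold is given as a lower bound, and since they entered through the group in which they were detected, their calls and p-values are no independent support. Genes named below for their role in a group, rather than for the size of their change, were chosen after their values were seen.

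**Figure D1:**
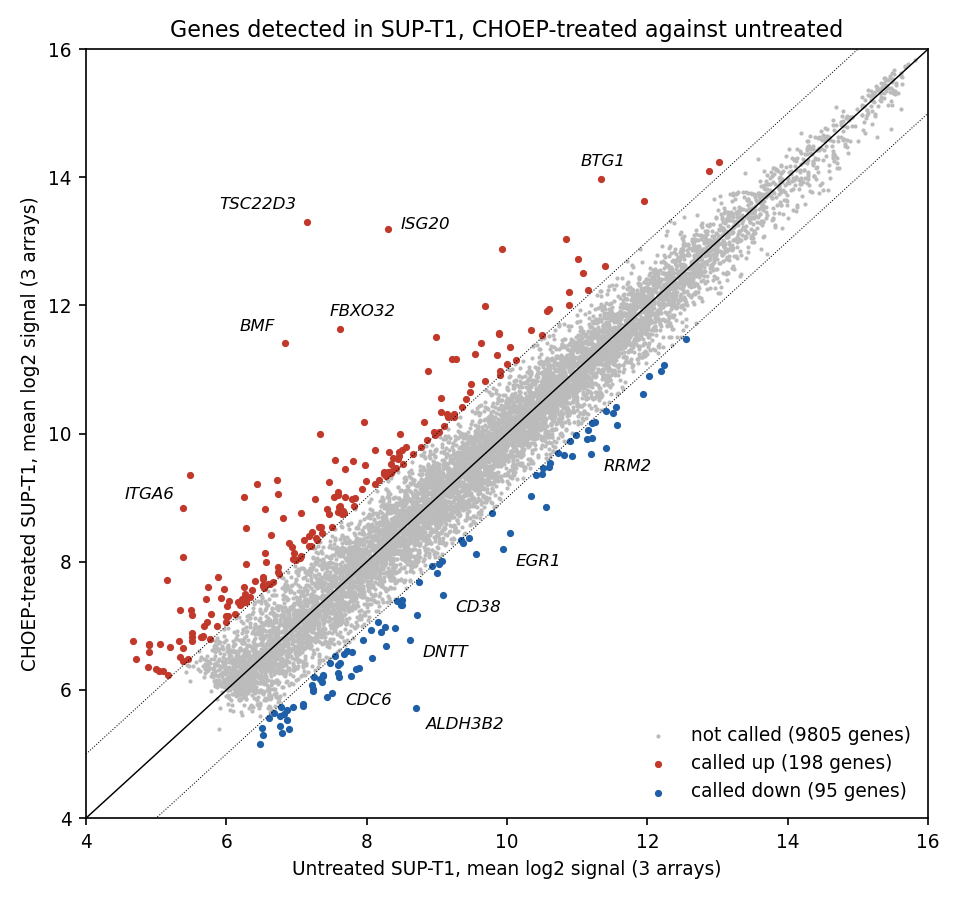
Mean log2 signal of 10098 genes on 3 untreated (x axis) and 3 CHOEP-treated (y axis) SUP-T1 arrays, with the solid line at equality and the dotted lines at a 2-fold change. Red marks the 198 genes called up and blue the 95 called down, and TSC22D3, ISG20, BMF and FBXO32 lie furthest above the line.

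The 2 largest rises were those of TSC22D3 and ISG20, both on the list of glucocorticoid-induced genes. TSC22D3, the gene of the leucine zipper protein GILZ, had log2 levels of 13.41, 13.15 and 13.35 on the treated arrays and 7.37, 7.16 and 6.91 on the untreated arrays. Its groups were far apart, a 71.5-fold rise (log2 fold change 6.16, SE 0.15, limma adjusted p = 3.44e-21). ISG20, an RNA exonuclease, was measured at 13.16, 13.40 and 13.02 with CHOEP and at 8.09, 8.52 and 8.31 without. That was a 29.5-fold rise with no overlap (log2 fold change 4.88, SE 0.14, adjusted p = 1.03e-19). SOCS1, an inhibitor of JAK kinases, rose from 7.85, 7.86 and 8.16 to 10.30, 10.38 and 9.87 (log2 fold change 2.23, SE 0.16, adjusted p = 1.29e-10). IL7R, the receptor chain for interleukin 7, had levels of 13.65, 13.76 and 13.46 with CHOEP against 11.91, 12.06 and 11.90 without (log2 fold change 1.67).

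Of 23 detected genes on the list of glucocorticoid-induced genes, 8 were called up and 0 down, and without the fold threshold 16 were higher and 2 lower. The other calls were TBL1X, part of a nuclear corepressor complex, at 1.33 on the log2 fold scale, FKBP5, a co-chaperone that holds the receptor in a low-affinity state, at 1.22, RGS1, a brake on chemokine receptor signalling, at 1.18 and BCL2L11, which encodes BIM, at 1.12. RGS1 was detected on no untreated array and was at least 1.58-fold higher, a bound under 2-fold, so its call rests on fitted signals not above background. FKBP5 had levels from 12.74 to 13.01 in untreated and from 13.79 to 14.39 in treated cells. Against the direction of the list, FKBP4, another co-chaperone of the receptor, had a log2 fold change of -0.78 (adjusted p = 0.00182) and MT2A, a metallothionein, of -0.76 (adjusted p = 0.00045). NR3C1, the receptor itself, had levels of 8.33, 8.73 and 7.90 against 7.83, 7.61 and 7.62, above all untreated values but under the 2-fold threshold (log2 fold change 0.64, adjusted p = 0.00304). The median of the list was 0.73, against -0.01 for all genes. Median scaling gave 6 calls up, 2 down and a median of 0.47, and the authors' values 6 up and 0 down. Of its 8 calls, 7 are genes that the study chose on these samples as changed in at least 2 lines. They are therefore not independent evidence of direction, and without the study's genes the median was 0.56. This list and those below were chosen with earlier results of these data known, so the other genes are not independent either.

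**Figure D2:**
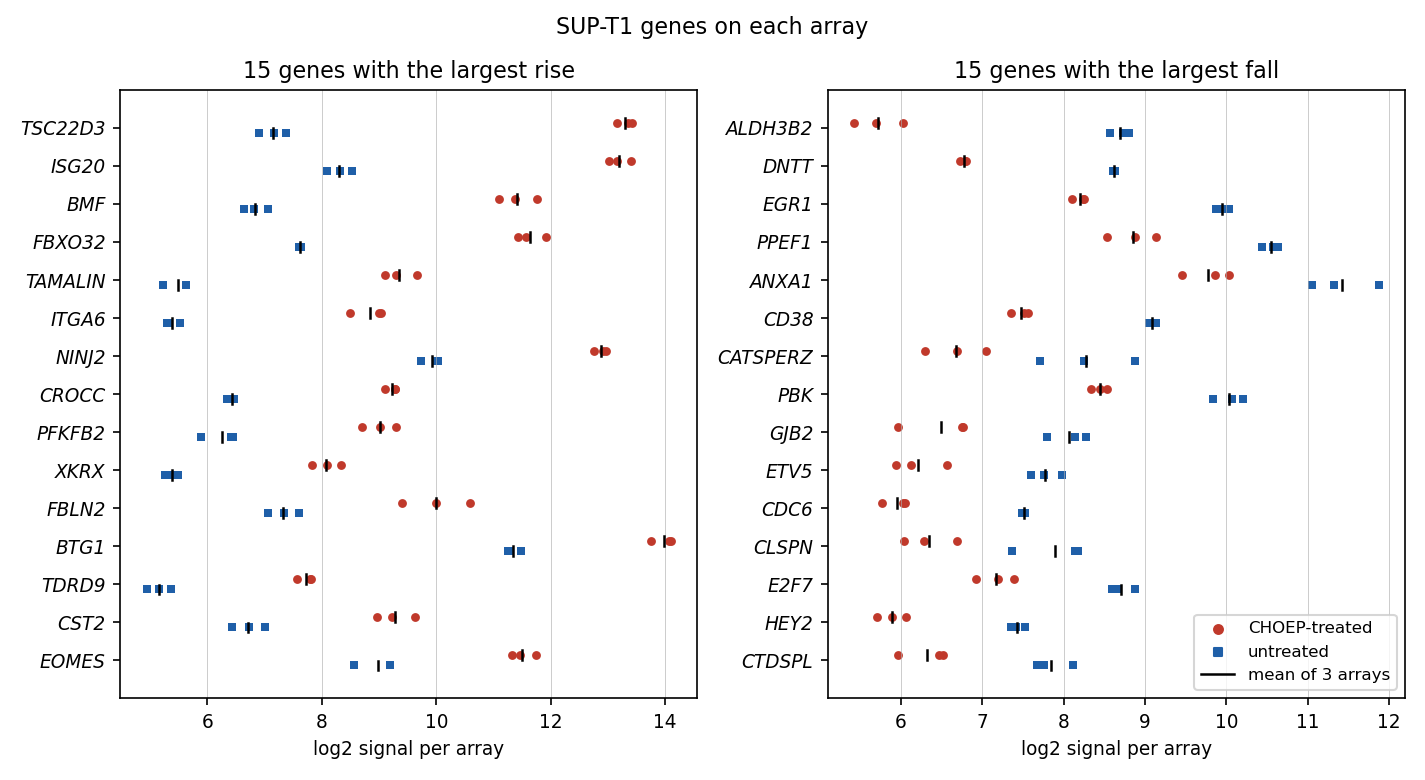
Log2 signal on each SUP-T1 array (x axis) for the 15 genes with the largest rise (left) and the largest fall (right) among genes called with separated groups, with red circles for CHOEP-treated arrays, blue squares for untreated arrays and a black bar at each mean of 3. TSC22D3 went from 7.15 to 13.30 on average, and the separation of the groups was part of how the 30 genes were chosen.

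Genes that FOXO factors induce or that restrain PI3K signalling rose together with these. FBXO32, the substrate receptor atrogin-1 of a ubiquitin ligase, had log2 levels of 11.56, 11.91 and 11.43 with CHOEP and 7.63, 7.60 and 7.63 without. The untreated arrays hardly varied, and the rise was 16.2-fold (log2 fold change 4.01, SE 0.13, limma adjusted p = 4.3e-18). BTG1, an anti-proliferative partner of mRNA deadenylases, went from 11.48, 11.25 and 11.29 to 14.10, 14.06 and 13.76 (log2 fold change 2.64, SE 0.14, adjusted p = 8.8e-14). PIK3IP1, an inhibitor of PI3K, was at 8.75, 9.01 and 7.85 with CHOEP against 6.25, 6.50 and 6.08, with the third treated culture lowest (log2 fold change 2.26, SE 0.20, adjusted p = 5.05e-09). DDIT4, an inhibitor of mTORC1, reached 13.06, 13.18 and 12.87 from 10.60, 11.07 and 10.85 (log2 fold change 2.20, SE 0.14, adjusted p = 7.14e-12).

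In all, 9 of 22 detected genes of this list were called up and 0 down, and 17 were higher and 1 lower without the fold threshold. YPEL5 (log2 fold change 1.94) and the anti-proliferative TOB1 (1.67) were next, followed by KLHL24 (1.19), MXD4, a MAX partner that opposes MYC (1.12), and HBP1, a transcriptional repressor of cell cycle genes (1.04). The call of MXD4 was lost under median scaling (0.86). KLF2, a regulator of T-cell quiescence, was at 7.47, 7.39 and 7.22 against 7.10, 7.32 and 7.42, which overlap (log2 fold change 0.08, adjusted p = 0.711). The growth arrest gene GADD45A had a log2 fold change of -0.42 (adjusted p = 0.0227). The median of the list was 0.75, and 0.42 without the study's genes, which made up 7 of its 9 calls. With the authors' normalised values it was 0.49 with 7 calls up, and with no detection filter 0.42.

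A core FOXO motif (TGTTTAC, either strand) was looked for in the promoter windows of RefSeq (GRCh38.p14, 250 bases before to 50 after each start), which could be matched for 8225 of the 10098 genes. It occurred in 4 of 19 promoters of this list, in 2.16% of the promoters of detected genes and in 3.41% of all RefSeq promoters of this length. It lies, for example, in the promoters of the called genes BTG1 and HBP1, shown because both rose. The windows shown do not cover all called genes of the list, and a called gene not shown may also carry the motif. The 30 bases around each match, on the strand of the gene with the motif or its reverse complement in capitals, are at chr12:92146037-92146066 for BTG1 and chr7:107168819-107168848 for HBP1.
BTG1: ccgggtttattTGTTTACaagcggattacg
HBP1: catcttctccaGTAAACAcaacacaaaagt
The matches are descriptions of the sequence, and binding was not measured.

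Among the apoptosis regulators, BMF stood apart. BMF, a BH3-only protein that binds and neutralises BCL2 relatives, had log2 levels of 11.37, 11.09 and 11.77 in treated and 6.82, 7.05 and 6.63 in untreated cells. The 23.8-fold rise (log2 fold change 4.57, SE 0.17, limma adjusted p = 5.67e-17) ranked behind those of TSC22D3 and ISG20 only. BCL2L11 (BIM) followed at a distance, from 6.55, 6.55 and 6.45 to 7.48, 7.61 and 7.84 (log2 fold change 1.12, SE 0.15, adjusted p = 2.79e-06), and its call was lost with the authors' normalised values (0.69). PMAIP1, the BH3-only protein NOXA, was lower, at 9.93, 9.87 and 9.81 against 10.77, 10.31 and 10.72, short of 2-fold (log2 fold change -0.73, adjusted p = 0.000303). BBC3, the p53-responsive PUMA, had overlapping groups (log2 fold change -0.02, adjusted p = 0.958). Hence 2 of 9 detected pro-apoptotic family members were called up and 0 down, with a median of 0.22. That median was unstable, at 0.10 without the first untreated, 0.12 without the second treated, 0.33 without the first treated and 0.37 without the second untreated array, and median scaling gave 0.05 with 2 calls up and 1 down.

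On the survival side, BCL2 was the single call among 7 detected genes. It went from 9.28, 9.46 and 9.28 to 8.44, 7.94 and 8.63, with no overlap and a log2 fold change of -1.01 (SE 0.18, adjusted p = 0.000188), just past the threshold. That call was lost with the authors' values (-0.82), with quantile normalisation without background correction (-0.84) and without the second treated (-0.81) or second untreated (-0.95) array. BIRC5, survivin, had a log2 fold change of -0.86 (adjusted p = 3.16e-05), MCL1 of -0.26 (adjusted p = 0.079), CFLAR, an inhibitor of caspase-8 activation, of 0.52 (adjusted p = 0.00179) and BIRC2 of 0.62 (adjusted p = 0.0047). Of 14 detected caspases, adaptors and death receptors, 2 were called up. The initiator caspase CASP8 reached 9.81, 9.81 and 9.62 from 8.68, 8.09 and 8.75 (log2 fold change 1.23, adjusted p = 2.31e-06). CASP9, the initiator of the apoptosome, reached 9.31, 9.41 and 9.28 from 8.23, 8.19 and 8.38 (log2 fold change 1.07, adjusted p = 2.48e-08), a call lost with the authors' values (0.89) and median scaling (0.85).

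Most DNA replication genes were lower with CHOEP. Of 51 detected DNA replication genes 9 were called down and 0 up, and 44 (86.3%) were lower without the fold threshold, against 16.2% of all genes. For 43 of the 51 every treated array lay below every untreated array, against 18.6% of all genes. The median log2 fold change was -0.69, so the shift was broad and mostly smaller than 2-fold, and the number of calls moved with the scaling, from 3 with the authors' values to 20 with median scaling, while the median stayed between -0.63 and -0.94. RPA3, a subunit of the single-strand binding complex, was the 1 member above 0 (log2 fold change 0.02, adjusted p = 0.915).

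CDC6, which loads the replicative helicase on origins, had log2 levels of 6.03, 6.05 and 5.78 with CHOEP and 7.53, 7.49 and 7.51 without. It was detected on 1 of 3 treated and 3 of 3 untreated arrays (log2 fold change -1.56, SE 0.14, limma adjusted p = 6.08e-09). CLSPN, the checkpoint mediator claspin, was at 6.29, 6.69 and 6.04 against 8.18, 7.36 and 8.14 (log2 fold change -1.55, SE 0.24, adjusted p = 2.49e-05). CLSPN was detected on 2 of 3 treated arrays. For both genes the 2-fold threshold was no longer met with quantile normalisation without background correction (-0.86 for CDC6 and -0.96 for CLSPN). RRM2, the small subunit of ribonucleotide reductase, was at 9.71, 9.73 and 9.60 against 11.30, 10.86 and 11.43 (log2 fold change -1.52, SE 0.13, adjusted p = 3.93e-09). DUT, which clears dUTP from the nucleotide pool, fell from 11.19, 11.15 and 11.28 to 9.88, 10.13 and 9.77 (log2 fold change -1.28). The remaining calls were MCM10 (-1.04), the clamp loader subunit DSCC1 (-1.05), the chromatin assembly factors CHAF1A and CHAF1B (both -1.02) and the licensing factor CDT1 (-1.02).

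Of 24 detected G1/S and E2F genes, 4 were called down and 0 up, 17 were lower and 1 higher without the fold threshold, and the median was -0.48. E2F7, a repressive E2F, went from 8.59, 8.66 and 8.88 to 7.39, 7.20 and 6.92 (log2 fold change -1.54, SE 0.12, limma adjusted p = 2.62e-10). CDC25A, the phosphatase that activates CDK2, was at 9.80, 9.80 and 10.17 against 10.96, 11.49 and 10.96 (log2 fold change -1.21, adjusted p = 2.24e-07). CCNE1, cyclin E1, was at 8.46, 8.54 and 8.12 against 9.33, 9.48 and 9.55 (log2 fold change -1.08, adjusted p = 1.02e-07), a call lost with the authors' values (-0.90) and without the third treated array (-0.95). E2F8, the other repressive E2F, was detected in untreated cells only and was at least 1.55-fold lower with CHOEP (adjusted p = 0.00276). That bound is under 2-fold, so the call of E2F8 rests on fitted signals not above background. The pocket protein gene RBL2 was the 1 member that was higher (log2 fold change 0.41, adjusted p = 0.0116), and the CDK inhibitor CDKN1B missed the threshold (0.35, adjusted p = 0.0506).

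E2F-type motifs (TTTCCCGC, TTTGGCGC, TTTCGCGC or TTTGCCGC, either strand) were present in 20 of 44 promoter windows of the DNA replication list (45.5%), against 5.9% of the promoters of detected genes and 3.33% of all RefSeq promoters. The G1/S and E2F list had them in 6 of 21 and the mitosis list in 4 of 46. The windows of 30 bases around the match nearest the start are printed for 4 called genes of these lists. They are examples, and a called gene not shown may also carry a motif. Each is in the gene's orientation, with the motif or its reverse complement in capitals. They lie at chr17:40287875-40287904 (CDC6), chr1:35769965-35769994 (CLSPN), chr3:48188443-48188472 (CDC25A) and chr16:88803743-88803772 (CDT1).
CDC6: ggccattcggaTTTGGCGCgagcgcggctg
CLSPN: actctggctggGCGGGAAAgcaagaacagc
CDC25A: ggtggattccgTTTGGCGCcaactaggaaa
CDT1: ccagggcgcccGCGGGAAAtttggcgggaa
All 4 matches lie within 50 bases of the annotated start, and no factor was measured on them.

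Mitotic genes were lower as a body. Of 54 detected, 5 were called down and 0 up, and 43 (79.6%) were lower without the fold threshold and 0 higher. For 43 of the 54 every treated array lay below every untreated array, against 18.6% of all genes. The median was -0.60, and between -0.54 and -0.90 under the other scalings, which called 2 to 20 genes down. AURKB, the kinase of the chromosomal passenger complex, had tight groups, at 10.32, 10.27 and 10.35 against 11.47, 11.57 and 11.51 (log2 fold change -1.20, SE 0.12, limma adjusted p = 4.07e-08). PLK1, the polo-like kinase, was at 8.10, 7.94 and 7.46 against 9.0, 8.86 and 9.13 (log2 fold change -1.16, SE 0.17, adjusted p = 1.75e-05), a call lost with the authors' values (-0.91) and without the third treated array (-0.98). MKI67, the Ki-67 proliferation marker, was variable, at 6.20, 5.27 and 6.74 against 7.15, 7.55 and 6.96 (log2 fold change -1.15, SE 0.22, adjusted p = 0.000268), and its call was lost with the authors' values (-0.66) and without the second treated (-0.75) or second untreated (-0.98) array. MKI67 was detected on 2 of 3 treated arrays. The kinetochore subunit SPC25 (-1.10) and the cytokinesis regulator ECT2 (-1.05) were the other calls. BUB1B, a spindle checkpoint kinase, was the 1 member above 0 (0.17, adjusted p = 0.414). PBK, a mitotic kinase outside the list, fell from 10.07, 9.83 and 10.20 to 8.45, 8.54 and 8.34 (log2 fold change -1.59, adjusted p = 1.28e-09).

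The core of the cell cycle homology region (TTTGAA, either strand) occurred in 34 of 46 promoter windows of the mitosis list (73.9%), in 1 of 44 of the DNA replication list, in 10.1% of the promoters of detected genes and in 15.4% of all RefSeq promoters. CCAAT boxes (CCAAT, either strand) also occurred in 34 of these 46, against 38.4% for detected genes and 35.7% for all promoters. The 30 bases around the match nearest the start are printed for 3 of the called genes, in the gene's orientation with the motif in capitals, at chr16:23678848-23678877 (PLK1), chr10:128126435-128126464 (MKI67) and chr2:168890416-168890445 (SPC25).
PLK1: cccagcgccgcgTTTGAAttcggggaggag
MKI67: tcttcgttttcgTTTGAAttgggcgggcgc
SPC25: aagtgcactaggTTTGAAatcggaaagttg
In PLK1 and MKI67 the motif starts 29 bases before the annotated start, and in SPC25 3 bases before it. The matches are descriptions, with no measurement of binding.

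**Figure D3:**
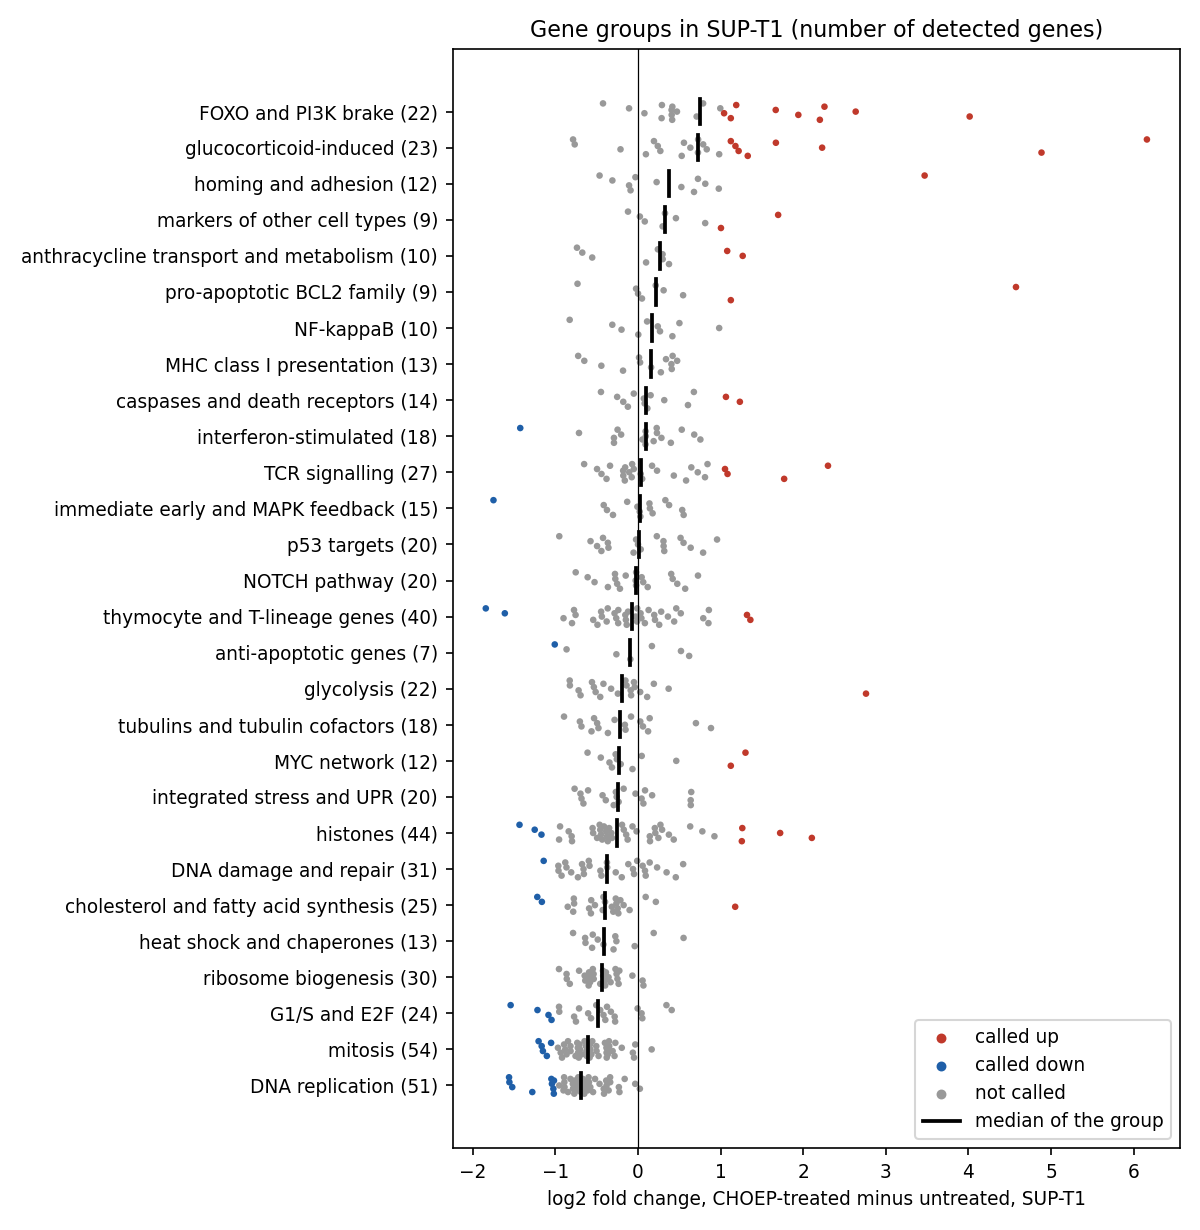
Log2 fold change in SUP-T1 (x axis, CHOEP-treated minus untreated) of each detected gene in the groups listed on the y axis, with the number of genes in brackets, red for genes called up, blue for genes called down, grey for the rest and a black bar at the median. FOXO and glucocorticoid genes have the highest medians (0.75 and 0.73) and DNA replication and mitosis the lowest (-0.69 and -0.60).

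Histone genes did not move as a block. Of 44 detected, 4 were called up and 3 down, 9 were higher and 15 lower without the fold threshold, and the median was -0.25. H2BC5 reached 10.93, 10.92 and 11.06 from 8.98, 8.84 and 8.79 (log2 fold change 2.10, SE 0.10, limma adjusted p = 9.19e-15). H2AC11 (1.72), H4C8 (1.26) and H2BC21 (1.26) were also called up. H2BC7 went the other way, from 9.51, 9.56 and 9.59 to 8.17, 8.40 and 7.80 (log2 fold change -1.43, SE 0.14, adjusted p = 2.26e-08), with H2AC4 (-1.25) and the linker histone H1-5 (-1.17). Genes of a histone type are closely related in sequence, so a probe may bind transcripts of relatives, and values of single members are uncertain.

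Among DNA damage and repair genes EXO1, an exonuclease of mismatch repair and end resection, was the 1 call of 31 detected, at 10.37, 10.70 and 10.18 against 11.51, 11.39 and 11.76 (log2 fold change -1.14, SE 0.12, limma adjusted p = 8.52e-08). Without the fold threshold 17 were lower and 1 higher, and the median was -0.37. Median scaling called 8 down, with a median of -0.68. Of 20 detected p53 target genes 0 were called by limma, 5 were higher and 5 lower without the fold threshold, and 14 had an unadjusted p under 0.05. CDKN1A, the CDK inhibitor p21, was lower, at 6.63, 6.97 and 6.72 against 7.48, 7.77 and 7.92 (log2 fold change -0.95, adjusted p = 4.28e-05), whereas TP53I3, an oxidoreductase gene, was higher, at 9.31, 9.13 and 9.34 against 8.39, 8.37 and 8.14 (0.96, adjusted p = 0.000361). SESN1, a sestrin, had a log2 fold change of 0.79 (adjusted p = 0.000284).

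Of 30 detected ribosome biogenesis genes 0 were called by limma, while 16 were lower and 0 higher without the fold threshold and 24 had an unadjusted p under 0.05, with a median of -0.44. Median scaling called 4 of them down. The nucleolar factor LYAR was lowest, at 11.75, 11.62 and 11.83 against 12.99, 12.55 and 12.53 (log2 fold change -0.95, limma adjusted p = 3.86e-06). The 73 detected cytosolic ribosomal protein genes had a median of 0.09, with 8 higher, 3 lower and 1 called up (RPL13A, 1.21, lost with median scaling at 0.95). MYC was at 12.97, 13.25 and 12.93 against 13.46, 13.32 and 13.72 (log2 fold change -0.45, adjusted p = 0.0131). Its antagonist MXD1 reached 11.32, 11.58 and 11.15 from 10.01, 10.12 and 10.01 (log2 fold change 1.30, SE 0.14, adjusted p = 1.95e-07), a call lost with median scaling (0.98).

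Among 25 detected genes of cholesterol and fatty acid synthesis 2 were called down and 1 up, 14 were lower and 1 higher without the fold threshold, and the median was -0.40. SCD, the stearoyl-CoA desaturase, fell from 12.18, 12.23 and 12.18 to 10.81, 11.01 and 11.12 (log2 fold change -1.22, SE 0.09, limma adjusted p = 7.91e-11). HMGCS1, which makes HMG-CoA for the mevalonate pathway, fell from 12.22, 12.26 and 12.22 to 11.17, 11.25 and 10.79 (log2 fold change -1.16, SE 0.12, adjusted p = 3.22e-08). TM7SF2, a sterol reductase, rose by 1.18, a call lost with median scaling (0.96). In glycolysis the regulatory enzyme PFKFB2 was the 1 call of 22 detected genes. It was at 9.02, 8.71 and 9.30 against 6.42, 6.45 and 5.88 (log2 fold change 2.76, SE 0.17, adjusted p = 5.81e-12), while 10 other members, among them ENO2 and the glucose transporter gene SLC2A3 (both -0.82), were lower without the fold threshold. No call was made by limma among 13 detected heat shock and chaperone genes, of which 8 were lower and 1 higher without the fold threshold and 10 had an unadjusted p under 0.05 (median -0.42). The stress response group (integrated stress and unfolded protein signalling), with 0 calls of 20 detected, had 3 higher, 6 lower and 12 at an unadjusted p under 0.05 (median -0.24). Nuclear-encoded oxidative phosphorylation, with 0 calls of 73, had 8 higher, 1 lower and 14 at an unadjusted p under 0.05 (median 0.08). That is a smaller share than the 4270 of 10098 over all genes.

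Drug handling genes were also examined. Of 10 detected genes of anthracycline transport and metabolism 2 were called up. AKR1C3, an aldo-keto reductase that can reduce doxorubicin, reached 11.68, 11.59 and 11.56 from 10.23, 10.43 and 10.36 (log2 fold change 1.27, SE 0.12, limma adjusted p = 6.36e-09). ABCC5, an efflux transporter, reached 10.83, 11.06 and 11.05 from 9.75, 10.11 and 9.84 (log2 fold change 1.08, SE 0.11, adjusted p = 9.16e-08). Both calls were lost under median scaling (0.93 and 0.77). AKR1C3 has close relatives, whose transcripts its probe may also bind. TOP2A and TOP2B, the topoisomerases that etoposide and doxorubicin act on, had log2 fold changes of -0.37 (adjusted p = 0.0409) and 0.14 (adjusted p = 0.539). Of 18 detected tubulin and cofactor genes 0 were called by limma, 8 were lower and 2 higher without the fold threshold and 10 had an unadjusted p under 0.05, with TUBA4A at -0.89 and TUBB at -0.70.

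Of 40 detected thymocyte and T-lineage genes 2 were called down and 2 up, and 10 were lower and 8 higher without the fold threshold, with a median of -0.07. DNTT, the terminal transferase of immature lymphocytes, had the tightest groups of the genes named here, at 6.73, 6.79 and 6.81 against 8.61, 8.63 and 8.60 (log2 fold change -1.84, SE 0.10, limma adjusted p = 1.04e-13). CD38, an ectoenzyme of thymocytes, was at 7.56, 7.51 and 7.35 against 9.07, 9.05 and 9.13 (log2 fold change -1.61, SE 0.14, adjusted p = 3.1e-09). In the other direction the co-stimulatory receptor gene CD27 reached 9.29, 8.61 and 9.12 from 7.85, 7.68 and 7.54 (log2 fold change 1.32, SE 0.12, adjusted p = 5.36e-09). ID2, an inhibitor of E proteins, had a log2 fold change of 1.36 and lost its call with the authors' values (0.81). CD1A, CD8A, PTCRA and RAG1 had overlapping groups (log2 fold changes of -0.24, 0.13, 0.26 and 0.20).

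Signalling downstream of the T-cell receptor was one of the study's questions. In this group 4 of 27 detected genes were called up and 0 down, 8 were higher and 4 lower without the fold threshold, and the median was 0.03. PRR5, a subunit of mTORC2, reached 11.98, 11.69 and 12.28 from 9.65, 9.83 and 9.58 (log2 fold change 2.30, SE 0.14, limma adjusted p = 4.84e-12). PRKCZ, an atypical protein kinase C, was detected on 3 treated and 0 untreated arrays, at 6.19, 6.67 and 6.60 against 4.71, 4.84 and 4.61. It was at least 1.25-fold higher with CHOEP (adjusted p = 5.76e-11), a bound under 2-fold, so its call rests on fitted signals not above background. When undetected probes were kept, a different PRKCZ probe was read and gave a log2 fold change of 0.14. UBASH3B, a phosphatase that dampens receptor signalling, rose by 1.08 and the tetraspanin CD53, at 10.47, 10.10 and 10.34 against 9.16, 9.26 and 9.33, by 1.05. Median scaling removed both calls (0.77 and 0.81), and that of CD53 was lost without the first treated array (0.97). These 4 called genes were all in the study's list chosen on these samples. Without the study's genes the median of the group was -0.07, and with another probe choice it was -0.05. GRAP2 and CD160, which the paper also named, were not among the detected genes. LCK, the kinase that starts receptor signalling, was at 11.24, 10.99 and 10.86 against 11.54, 11.40 and 11.29 (log2 fold change -0.38, adjusted p = 0.0481), and the related FYN at 11.06, 10.98 and 11.02 against 10.50, 10.33 and 10.48 (0.58, adjusted p = 0.00185). NOTCH1, which drives many T-lymphoblastic tumours, had overlapping groups (-0.36, adjusted p = 0.18). Of 20 detected genes of its pathway 0 were called by limma, with 4 higher and 3 lower without the fold threshold. An unadjusted p under 0.05 was reached by 9 of them, near the share over all genes (4270 of 10098). HEY2, a NOTCH target in several tissues and not on that list, fell from 7.35, 7.41 and 7.52 to 5.71, 6.07 and 5.89 (log2 fold change -1.54, adjusted p = 5.16e-11) and lost its call with the authors' values (-0.90). It was detected on 1 of 3 treated and 3 of 3 untreated arrays.

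ITGA6, integrin alpha 6, was detected on no untreated array and was at 9.0, 8.50 and 9.03 against 5.52, 5.31 and 5.29, at least 6.42-fold higher (limma adjusted p = 1.37e-16). ITGAE, the integrin alpha chain CD103, was at 12.90, 12.59 and 13.12 against 12.12, 11.83 and 11.73, just short of 2-fold (log2 fold change 0.98, adjusted p = 1.59e-05). EOMES, a T-box factor of effector lymphocytes, rose from 8.57, 9.19 and 9.19 to 11.32, 11.74 and 11.47 (log2 fold change 2.52, SE 0.17, adjusted p = 1.6e-11). The natural killer cell genes NKG7, at 9.48, 9.49 and 9.59 against 8.24, 8.74 and 8.57 (1.01, adjusted p = 3.72e-05), and KLRD1, detected only with CHOEP and at least 1.34-fold higher, rose as well, and both calls were lost with the authors' values (0.87 and 0.92), that of NKG7 also without the third treated (0.97) or first untreated (0.87) array. PRF1, perforin, was also detected only with CHOEP, at 6.52, 6.47 and 6.92 against 5.74, 5.95 and 5.77, and was at least 1.39-fold higher (adjusted p = 0.00031) without reaching a call. NKG7 and KLRD1 were the 2 calls among the 9 detected markers of other cell types, while the natural killer cell markers NCAM1, GNLY and KLRB1 were among the 14 detected on no SUP-T1 array. The bound of KLRD1 is under 2-fold, so its call rests on fitted signals not above background. The part of other cells in these values was not tested. Of 12 detected genes of homing and adhesion 1 (ITGA6) was called up, and 6 were higher and 1 lower without the fold threshold. Class I antigen presentation (13 detected, 5 higher, 2 lower, 7 at an unadjusted p under 0.05) and NF-kappaB components and targets (10 detected, 3 higher, 1 lower, 5 at an unadjusted p under 0.05) had 0 calls by limma. Over all genes 4270 of 10098 had an unadjusted p under 0.05.

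Several of the largest changes fell on genes outside any of these groups. TAMALIN, a scaffold protein, was detected on no untreated array and was at 9.67, 9.10 and 9.30 against 5.22, 5.63 and 5.62, at least 9.15-fold higher (limma adjusted p = 3.49e-13). NINJ2, the adhesion protein ninjurin 2, rose from 9.73, 10.00 and 10.02 to 12.76, 12.97 and 12.91 (log2 fold change 2.96, SE 0.14, adjusted p = 9.19e-15). CROCC, the rootlet protein of cilia, rose by 2.79 and FBLN2, an extracellular matrix protein whose treated arrays spread from 9.39 to 10.59, by 2.67. XKRX, of the XK family of membrane proteins, and TDRD9, a germ line helicase of the piRNA pathway, were at least 3.78-fold and at least 2.94-fold higher. The secreted protease inhibitor CST2 reached 9.22, 8.97 and 9.63 from 6.72, 7.0 and 6.42 (log2 fold change 2.56, SE 0.15, adjusted p = 1.85e-12), with CST5 (2.33) and CST3 (1.28) beside it. Cystatins of this cluster are similar in sequence and their probes may share transcripts.

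Downward, ALDH3B2, an aldehyde dehydrogenase, changed the most. It was at 6.03, 5.43 and 5.69 against 8.57, 8.80 and 8.73, detected on no treated array and at least 6.26-fold lower with CHOEP (limma adjusted p = 6.13e-16). EGR1, an immediate early factor of MAP kinase and receptor signalling, fell from 10.03, 9.93 and 9.88 to 8.24, 8.10 and 8.25 (log2 fold change -1.75, SE 0.14, adjusted p = 8.39e-10) and was the 1 call among 15 detected genes of its group. ANXA1, annexin A1, was at 10.03, 9.45 and 9.86 against 11.87, 11.05 and 11.32 (log2 fold change -1.64, SE 0.17, adjusted p = 1.03e-07). PPEF1, a calcium-linked phosphatase, had a log2 fold change of -1.70, the sperm channel subunit CATSPERZ of -1.60, the gap junction gene GJB2 of -1.58, the ETS factor ETV5 of -1.56 and the phosphatase CTDSPL of -1.53. GJB2, ETV5 and CTDSPL were each detected on 2 of 3 treated arrays. IRF1, an interferon-responsive factor, was the 1 call among 18 detected genes of the interferon list (which does not hold ISG20, an interferon-stimulated gene that rose), at 10.23, 10.97 and 9.22 against 11.28, 11.53 and 11.89 (log2 fold change -1.42, adjusted p = 0.000232). Its treated arrays were the most scattered of the genes named here, and the call was lost without the third (-0.96).

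The other lines show how much of this was shared. Of the 198 genes called up in SUP-T1, 122 were called up in no other line, 55 in 1, 14 in 2, 6 in 3 and 1, TSC22D3, in all 4. Of the 95 called down, 69 were called down in no other line and 26 in 1. A missing call in another line is not a difference, so the change in SUP-T1 was compared with the mean change of the other 4 lines in the same fit. By this test, with the same 2 criteria for a call, 128 genes (1.27%) had a higher and 78 (0.772%) a lower change in SUP-T1. Each line had its own chip and was treated at its own IC50, which the paper lists as the same for SUP-T1 and KARPAS-299. What dose, chip and cell line contributed to these differences from the mean of the other lines cannot be told apart.

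Among genes detected in both groups of SUP-T1 arrays, the highest differences were those of BMF (3.10, SE 0.19), TSC22D3 (2.98, SE 0.16), ISG20 (2.79, SE 0.15) and FBXO32 (2.67, SE 0.15), all in log2 units, with limma adjusted p from 9.98e-13 to 5.28e-12. TAMALIN, ITGA6 and ALDH3B2 were also called in this test, but each was detected in 1 group of SUP-T1 arrays only, so the size of its difference and its rank are not given. The change of BMF was 4.57 in SUP-T1, 3.85 in HD-MAR-2, 1.65 in HH, 0.40 in JURKAT and 0.00 in KARPAS-299. CST2, at 2.56 in SUP-T1, was between -0.22 and 0.10 in the other lines. DNTT (difference -1.78, SE 0.11) had changes of -0.13 to -0.01 in lines other than SUP-T1. Detection bears on these differences, since of the 24 arrays of the other lines CST2 and PPEF1 were detected on 0, CATSPERZ and XKRX on 1, ALDH3B2 on 6, TAMALIN on 7 and DNTT on 12.

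For NFIL3 and PMAIP1 the higher changes were those of other lines. NFIL3, a basic leucine zipper repressor, was at 8.59, 8.80 and 7.79 with CHOEP and at 8.59, 8.23 and 8.44 without, so the groups overlapped (log2 fold change -0.03, limma adjusted p = 0.934). It changed by 3.90 in HH and 2.75 in HD-MAR-2, and the difference was -1.85 (SE 0.18, adjusted p = 6.71e-08). PMAIP1, which fell by 0.73 here, changed by 2.67 in HH and 1.26 in KARPAS-299 (difference -1.60, SE 0.16, adjusted p = 5.19e-08). AURKB had a change between -0.23 and 0.15 in the other lines (difference -1.10, adjusted p = 2.22e-06), while CDC6 fell by 1.21 in HD-MAR-2 too and differed by -1.28 from the mean of the 4 (adjusted p = 2.49e-06).

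**Figure D4:**
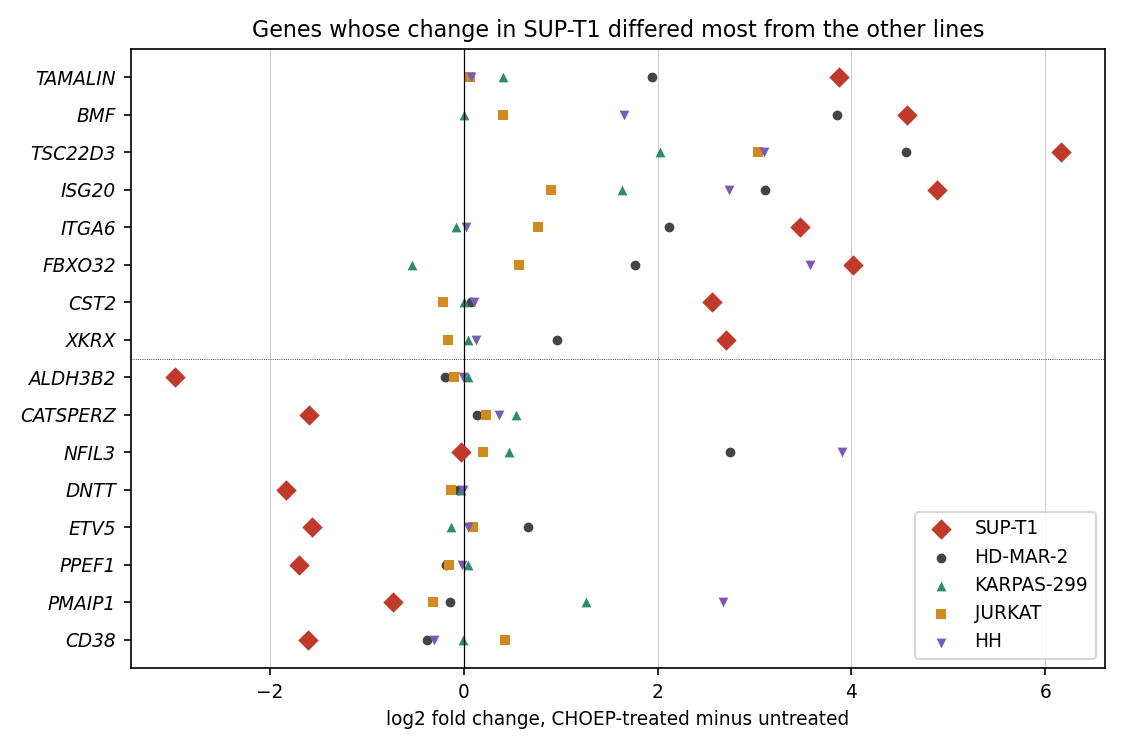
Log2 fold change with CHOEP (x axis) in each of the 5 lines for the 8 genes with the most positive (above the dotted line) and the 8 with the most negative difference between SUP-T1 (red diamonds) and the mean of the other lines. Values of TAMALIN, ITGA6, XKRX and ALDH3B2, detected in 1 group of SUP-T1 arrays only, rest on signals not above background in the other group. TSC22D3 was furthest right in SUP-T1 at 6.16, and NFIL3 lay at -0.03 in SUP-T1 and at 3.90 in HH.

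The group medians give the same comparison by process, as a description. Glucocorticoid genes had medians of 0.73 in SUP-T1, 0.71 in HD-MAR-2, 0.52 in HH, 0.13 in JURKAT and -0.00 in KARPAS-299. For DNA replication genes the median in HD-MAR-2 (-0.79) was near that in SUP-T1 (-0.69), and the other lines lay between -0.09 and 0.03. The mitosis median was -0.60 in SUP-T1, -0.23 in HD-MAR-2 and, in the remaining lines, 0.15 (HH), 0.01 (JURKAT) and -0.05 (KARPAS-299), although the test of single genes called 1 of 54 (AURKB) as lower in SUP-T1. Histone genes had medians of 0.53 in HD-MAR-2 and 0.28 in HH against -0.25 in SUP-T1, and 7 of 44 were called lower and 2 higher in SUP-T1 than in the mean of the others.

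**Figure D5:**
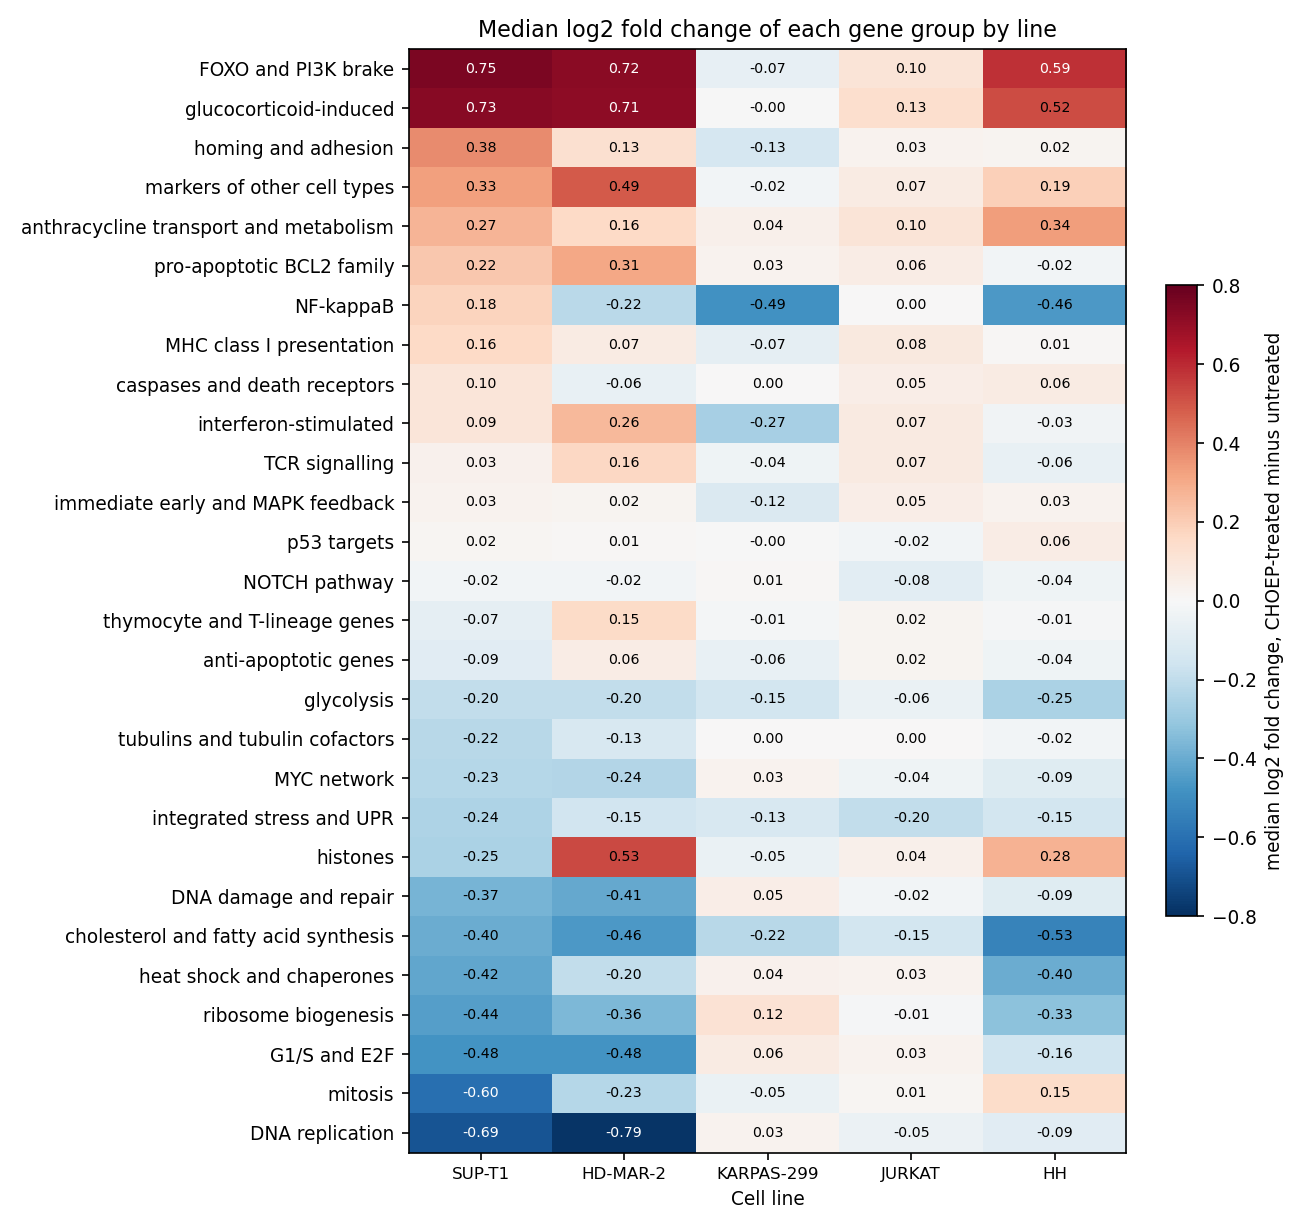
Median log2 fold change with CHOEP of each gene group (rows) in each cell line (columns), with colour from blue (lower) to red (higher) and the value printed in each cell. SUP-T1 and HD-MAR-2 share low DNA replication medians (-0.69 and -0.79), and the mitosis median is -0.60 in SUP-T1 and 0.15 in HH.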

How the data were processed

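Cells of 5 lines, 3 treated and 3 untreated cultures each, were profiled on Illumina HumanHT-12 v4 arrays after Trizol extraction and RNeasy clean-up of the RNA per the labels (the methods name the RNeasy kit alone). The authors deposited the intensity of each probe before normalisation together with a detection p-value, exported from BeadStudio (version 3 in the submitters' processing notes), and a second table of log2 values that the authors normalised by robust spline in lumi. All deposited columns were matched to a sample (0 left over). The number of arrays, and not a count of molecules, limits the precision here.

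Background correction and quantile normalisation of all 30 arrays used neqc of limma 3.58.1 (R 4.3.3, offset 16), with the detection p standing in for control probes. Kept probes were detected (p below 0.01) by 3 or more arrays. A linear model with 10 group means and empirical Bayes moderation gave the effect of CHOEP in SUP-T1 and its difference from the mean effect in the other 4 lines. P-values were adjusted by Benjamini and Hochberg over all 22652 kept probes, and a call needed a 2-fold change and an adjusted p below 0.05. Each gene was read from its detected probe with 1 symbol and the highest mean over the 6 SUP-T1 arrays. Of 47323 probes with values, 30113 had 1 symbol, 8 several and 17202 none. A gene detected on no array of a group has a fold given as at least the mean of the other group over the detection limit. The fitting steps were tested on simulated data.

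Named genes were the 15 with the largest called rise and the 15 with the largest called fall with separated groups, the 3 largest changes of each gene list, the 8 largest called differences from the other lines in each direction, and NFIL3, PRKCZ, PRR5, CD53, LCK, FYN, NOTCH1 and NR3C1 (GRAP2 and CD160, also in the rule, were not detected, and provisional symbols were passed over). The members and lists were chosen with earlier results of these data known. Genes named in addition, after their values were seen, were IL7R, TBL1X, FKBP5, RGS1, MT2A, DDIT4, YPEL5, TOB1, KLHL24, HBP1, KLF2, GADD45A, MYC, BBC3, MCL1, CFLAR, RPA3, DUT, MCM10, DSCC1, CHAF1A, CHAF1B, CDT1, E2F8, RBL2, CDKN1B, SPC25, ECT2, BUB1B, H4C8, H2BC21, H2AC4, H1-5, TOP2A, TOP2B, TUBB, CD27, CST5 and CST3, and the T-lineage and other-cell markers. Replicate numbers did not pair the cultures (correlations of same-numbered residuals 0.30, 0.14 and -0.15), so no pairing was used. Alternatives tried were median scaling, uncorrected intensities after quantile normalisation, the log2 table of the authors, a fit to the 6 SUP-T1 arrays alone, other detection filters, another probe choice, a replicate block, another variance model, no fold threshold and leaving out each SUP-T1 array. Promoter sequences came from RefSeq (GRCh38.p14).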

Additional observations from a re-analysis of the deposited data

Results flagged for a closer look

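The change with CHOEP differed between SUP-T1 and the mean of the other 4 lines, by limma's test of the difference, for 128 genes that had a higher and 78 that had a lower change in SUP-T1. Chips also differed between lines, and so did doses, except between SUP-T1 and KARPAS-299.

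Among the named genes with a higher change in SUP-T1, the differences in log2 units were 3.10 for BMF, 2.98 for TSC22D3, 2.79 for ISG20, 2.67 for FBXO32, 2.57 for CST2, 2.44 for NINJ2, 2.37 for FBLN2 and 2.11 for EOMES. Smaller differences were those of PRR5 at 1.93, PFKFB2 at 1.74, BTG1 at 1.64, H2BC5 at 1.52, CROCC at 1.48, MXD1 at 1.35, NFKB2 at 1.24, SOCS1 at 1.18, H2AC11 at 1.15 and NKG7 at 1.00.

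Among those with a lower change, the differences were -1.92 for CATSPERZ, -1.85 for NFIL3, -1.78 for DNTT, -1.73 for ETV5, -1.62 for PPEF1, -1.60 for PMAIP1, -1.54 for CD38, -1.48 for GJB2, -1.47 for PBK and -1.38 for TUBA4A. H2BC7 was at -1.36, IRF1 at -1.35, HEY2 at -1.32, CDC6 at -1.28, CTDSPL at -1.27, ANXA1 at -1.21, CLSPN at -1.20, EGR1 at -1.18, AURKB at -1.10 and RRM2 at -1.01.

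For 7 further named genes that were detected in 1 group of SUP-T1 arrays only, the fitted difference rests on signals not above background, so it is neither a measured size nor a rank. These fitted values were 3.25 for TAMALIN, 2.76 for ITGA6, 2.46 for XKRX, 2.14 for TDRD9, 1.32 for KLRD1, 1.24 for PRKCZ and -2.92 for ALDH3B2.

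Of 3988 detected probes without a gene symbol, which no comparison of the report used, 58 were called up and 25 down with CHOEP in SUP-T1.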

How the results depend on the processing

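The counts of calls depended on the processing. Of 62 called named genes 38 kept their call under every alternative run, and 20 of 30 gene list medians kept their sign. A change of sign with an adjusted p below 0.05 in the main or alternative fit occurred for 0 of the 113 named genes. In place of 198 genes called up and 95 called down, the authors' values gave 89 and 30, quantile normalisation without background correction 83 and 31, and median scaling 131 and 341, whereas the adjusted p alone gave 1476 and 1637. All 89 and 30 calls of the authors' values were also calls of the main analysis. Genes with a higher or lower change than in the other lines numbered 128 and 78, and 48 and 24 with the authors' values, 49 and 24 when the background was not corrected, 102 and 144 after median scaling and 840 and 865 by adjusted p alone. The causes were not tested, apart from the fold threshold, whose removal adds genes by construction.

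Leaving out 1 SUP-T1 array gave 192 to 232 genes called up, 89 to 134 called down, 112 to 157 with a higher and 73 to 119 with a lower change, the 119 without the second CHOEP-treated array. With the replicate block, which the numbers do not support as a pairing (1 of 3 correlated best with its own number), 196 were called up and 95 down, and 125 and 78 differed from the other lines, with no call of a named gene changed. For CDC6, detected on 1 of 3 treated arrays, the log2 fold change was -1.56, and -0.86 without background correction.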
